A study of Mus musculus with 7 samples.

Results

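The 10 genes described here are CXC chemokines of mouse skin: Cxcl1, Cxcl2, Cxcl3, Cxcl5, Cxcl9, Cxcl10, Cxcl12, Cxcl13, Cxcl14 and Cxcl16. They were found by name among 27670 named genes on the array, and all 10 were measured, on 12 of the 41174 probes. In the scanner files Cxcl3 carries its older name Gm1960, and it was matched by accession. All 10 passed the filter on dim probes, a signal clear of background in 3 or more of the 14 channels, which left 17111 genes for the tests.

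The samples were dorsal skin RNA of hairless HR-1 mice, males of 5 weeks. One diet was AIN-93G and the other was the same diet with glucosylceramide (GC), a glycosphingolipid. Each of the 7 arrays held 1 GC-fed and 1 control-fed sample, labelled with Cy3 and Cy5. In the before-SDS state, 3 arrays held untreated skin at 12 days of diet, and in the after-SDS state, 4 arrays held skin at 14 days of diet. After-SDS skin had been treated with 10% sodium dodecyl sulfate (SDS), an irritant detergent, for 5 minutes daily, 2 times. The 4 groups were therefore control-fed before SDS (n = 3), GC-fed before SDS (n = 3), control-fed after SDS (n = 4) and GC-fed after SDS (n = 4). The labels call the replicates biological without saying whether each was 1 mouse or a pool, so the p-values measure the spread between these samples.

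CXC chemokines are small secreted proteins that draw leukocytes along a gradient by binding G-protein-coupled receptors. Cxcl1, Cxcl2, Cxcl3 and Cxcl5 bind Cxcr2 and attract neutrophils; keratinocytes, fibroblasts and macrophages make them after injury or interleukin-1 signalling. Cxcl9 and Cxcl10 are induced by interferons and attract T cells through Cxcr3. Cxcl12 (receptor Cxcr4), Cxcl13 (receptor Cxcr5) and Cxcl14 are called homeostatic because resting tissue makes them, Cxcl13 being the B cell attractant of lymphoid follicles. Cxcl16 is made as a transmembrane protein and binds Cxcr6.

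Of these genes, 7 (Cxcl5, Cxcl3, Cxcl1, Cxcl2, Cxcl9, Cxcl10 and Cxcl13) lie on chromosome 5 in that order in the RefSeq annotation of GRCm38.p6. RefSeq promoter windows were at hand for 8 of the 10 members; Cxcl5 and Cxcl16 are named only. The windows below hold the 250 bases before the start of 5 members, 5′ to 3′, and are shown because 3 of these genes had diet ratios that moved together across the arrays. Capitals mark matches, on either strand, to the NF-κB consensus, to TATAAA and to GAAANNGAAA, the core of an interferon-stimulated response element.
Cxcl1, chr5:90890995-90891244, plus strand: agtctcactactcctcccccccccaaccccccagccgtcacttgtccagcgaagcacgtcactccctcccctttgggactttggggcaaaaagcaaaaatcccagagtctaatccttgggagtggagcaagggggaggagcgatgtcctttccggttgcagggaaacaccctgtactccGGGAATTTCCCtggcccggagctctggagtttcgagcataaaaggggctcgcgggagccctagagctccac
Cxcl2, chr5:90903649-90903898, plus strand: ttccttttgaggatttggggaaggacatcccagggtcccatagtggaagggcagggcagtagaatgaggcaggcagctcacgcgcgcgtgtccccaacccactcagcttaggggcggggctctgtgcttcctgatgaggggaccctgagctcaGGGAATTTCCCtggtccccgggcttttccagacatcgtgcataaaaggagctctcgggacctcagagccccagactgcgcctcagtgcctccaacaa
Cxcl3, chr5:90785851-90786100, plus strand: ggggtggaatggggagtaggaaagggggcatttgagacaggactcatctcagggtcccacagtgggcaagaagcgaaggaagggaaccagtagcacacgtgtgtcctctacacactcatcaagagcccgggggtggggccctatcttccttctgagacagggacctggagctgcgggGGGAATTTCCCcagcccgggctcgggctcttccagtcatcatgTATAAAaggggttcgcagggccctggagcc
Cxcl10, chr5:92348890-92349139, minus strand: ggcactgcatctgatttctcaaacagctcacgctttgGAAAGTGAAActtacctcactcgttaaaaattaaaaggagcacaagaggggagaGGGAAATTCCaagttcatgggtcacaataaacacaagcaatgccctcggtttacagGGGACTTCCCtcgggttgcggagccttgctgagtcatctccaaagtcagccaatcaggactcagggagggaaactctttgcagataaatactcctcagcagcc
Cxcl13, chr5:95956689-95956938, plus strand: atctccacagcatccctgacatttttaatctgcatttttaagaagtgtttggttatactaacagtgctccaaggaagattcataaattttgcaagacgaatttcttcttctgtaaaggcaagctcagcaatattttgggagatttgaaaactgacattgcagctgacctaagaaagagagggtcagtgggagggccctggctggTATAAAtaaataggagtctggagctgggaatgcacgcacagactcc

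Cxcl1, Cxcl2 and Cxcl3 each held the same 11 letters, GGGAATTTCCC, in which the NF-κB consensus matched on both strands with overlap. The first base of the plus-strand match lay 71, 97 and 73 bases before the start in Cxcl1, Cxcl2 and Cxcl3. Cxcl3 also held a TATAAA match. Cxcl10 held 2 separate NF-κB matches and 1 GAAANNGAAA match. Cxcl13 held a TATAAA match and neither of the others. Of the 3 windows not shown, that of Cxcl9 held a TATAAA match alone, that of Cxcl14 a GAAANNGAAA match alone, and that of Cxcl12 none of the motifs. Of all 32851 RefSeq windows of this length, 3.9% held the NF-κB consensus, 12.4% TATAAA and 2.98% GAAANNGAAA. A match is a description of the letters and not a measured binding site.

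The 3 before-SDS arrays were 1 slide and the 4 after-SDS arrays another, so SDS, slide and 2 more days of diet cannot be told apart. The share of spots clear of background was 48.5% to 54.5% in green and 58.2% to 62.8% in red. Epidermal keratinocyte markers (10 of 10 measured, Krt10 without a level) had a median log2 intensity between 14.83 and 15.86 in all samples. Skeletal muscle markers (10 of 10) had one between 14.55 and 15.81. The GC-fed over control-fed ratios of after-SDS array 4 ran against those of arrays 1, 2 and 3 over all genes, at r = -0.60, -0.62 and -0.30. By their labels, arrays 3 and 4 carry the GC-fed sample in Cy5 and arrays 1 and 2 in Cy3. Why array 4 runs against the others was not tested. Without the turn for the dye, the same correlations read 0.60 and 0.62 with arrays 1 and 2 and -0.30 with array 3. They differ only in sign and are no further observation. The members' results are given as labelled and, where it moves them, without array 4, with its sign turned and with the sign of array 3 turned. Array 4 was singled out by ratios of these same data. Leaving out or turning an array that disagrees narrows the errors by construction. The adjusted p-values in those 2 settings therefore show how far results depend on array 4, and are no test of a diet or SDS effect.

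Levels are log2 single-channel intensities after normalization, on which each probe is compared only with itself. In control-fed skin, Cxcl5, a neutrophil attractant made by epithelium, rose with SDS, and Cxcl13 rose in skin of both diets. Cxcl1, Cxcl2 and Cxcl3 lay higher in every control-fed sample after SDS than in any before it, but did not pass the test. Cxcl9, Cxcl10, Cxcl12, Cxcl14 and Cxcl16 passed in neither diet. The question here is how each gene differed after SDS from before it within a diet.

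**Figure D1:**
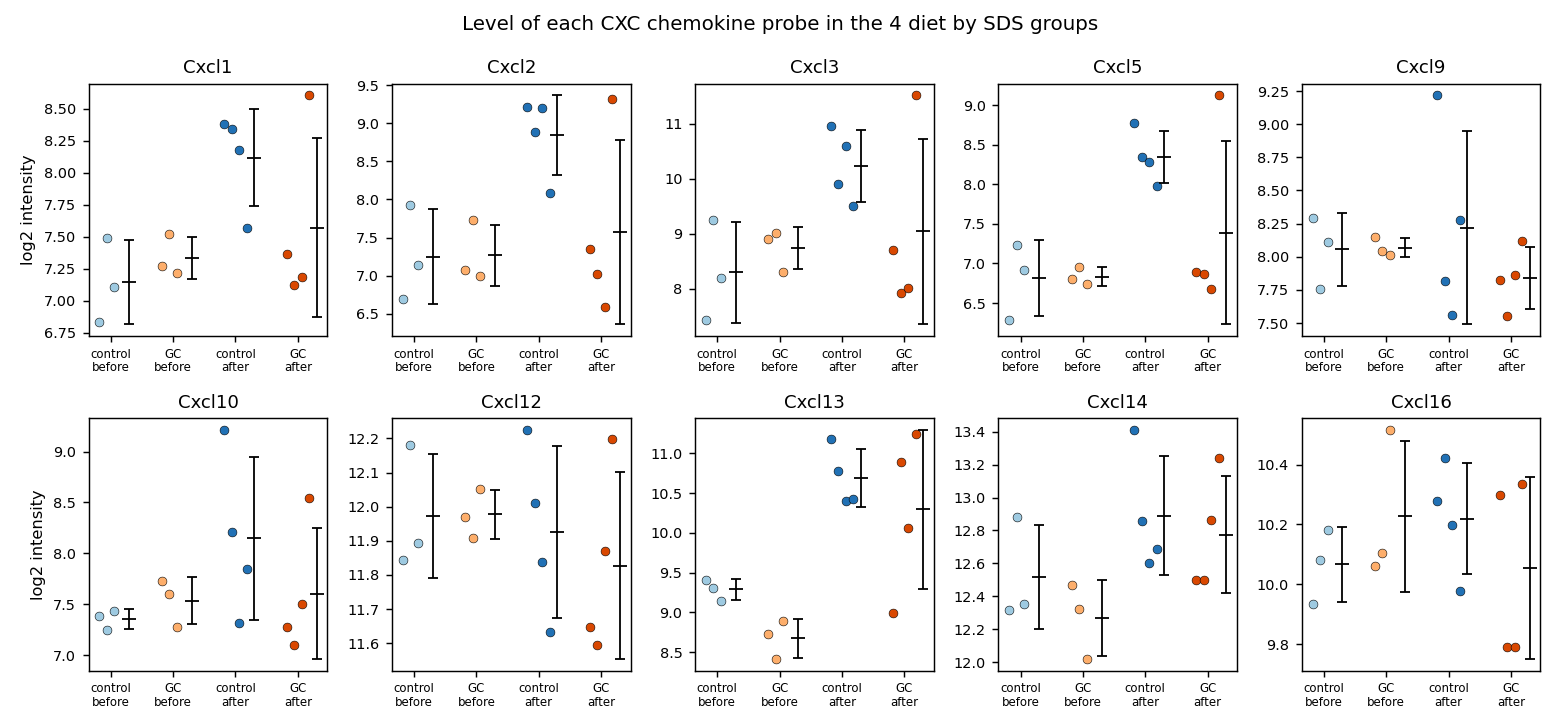
Log2 intensity (y axis, a separate scale in each panel) of each CXC chemokine in control-fed and GC-fed skin before and after SDS; points are single samples from left to right by replicate number, and bars are mean ± SD (n = 3 before, n = 4 after). In GC-fed skin after SDS, array 4 is the highest sample for Cxcl1, Cxcl2, Cxcl3 and Cxcl5.

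Cxcl5 in control-fed skin read 6.29, 7.23 and 6.92 before SDS and 8.78, 8.34, 8.28 and 7.98 after it. The groups did not overlap, and the means were 6.81 ± 0.48 (SD, n = 3) and 8.35 ± 0.33 (SD, n = 4). The fitted difference was 1.48 on the log2 scale (SE 0.47), or 2.8-fold, with an adjusted p of 0.0455 in limma's separate-channel fit. In 1 of the 3 samples before SDS, that of array 1, the probe was not well above background, so the size of the difference rests in part on a reading at the floor. Without that array the difference was 0.90 (SE 0.54), and with the scanner software's processed signals it was 2.70 (SE 0.99, adjusted p 0.0862). This call was a narrow one. It was kept in 4 of 17 other settings and lost in 13, with adjusted p from 0.000778 to 0.369, while the difference stayed above 0 in all 17. It was lost without any 1 of the 3 before-SDS arrays (0.0686 to 0.369) and without after-SDS array 1, 2 or 3 (0.0793 to 0.109). It was also lost when background was taken from around each spot, where the difference was 1.08 (SE 0.41, adjusted p 0.0897); that choice of background was settled after the members' values under both had been seen.

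Cxcl2, the macrophage inflammatory protein that shares Cxcr2 with Cxcl5, read 6.69, 7.92 and 7.14 in control-fed skin before SDS. After SDS it read 9.21, 8.89, 9.19 and 8.09. All 4 samples after SDS stood above all 3 before it, and the difference was 1.55 (SE 0.54), with an adjusted p of 0.0636. Cxcl3 read 7.44, 9.25 and 8.19 before and 10.96, 9.91, 10.59 and 9.50 after SDS in control-fed skin. Its difference of 1.90 (SE 0.75, adjusted p 0.0908) was the highest of the 10 members and had the widest error of them. Cxcl1, the keratinocyte-derived chemokine, read 6.84, 7.49 and 7.11 before and 8.38, 8.35, 8.18 and 7.57 after, a difference of 0.93 (SE 0.31, adjusted p 0.0534). For each of these genes the lowest control-fed sample after SDS was that of array 4.

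Of all 17064 genes in this fit, 8.46% were called higher after SDS in control-fed skin and 16.2% had all samples after SDS above all before it. Among the 10 members 2 were called higher, Cxcl5 and Cxcl13, and 5 had groups that did not overlap, those 2 with Cxcl1, Cxcl2 and Cxcl3. The median difference over the 10 members was 0.82, against -0.0046 over all genes. With array 4 left out, 5 of 10 members were called higher, where 12.2% of all genes were. The added 3 were Cxcl1 at 1.18 (SE 0.15, adjusted p 0.000963), Cxcl2 at 1.96 (SE 0.26, adjusted p 0.0012) and Cxcl3 at 2.36 (SE 0.36, adjusted p 0.00212). With the sign of array 4 turned, the same 5 passed, and 13.8% of all genes were called higher. With the sign of array 3 turned instead, none of the 10 passed.

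In GC-fed skin the neutrophil attractants gave a different picture by sample. Cxcl3 read 8.90, 9.02 and 8.30 before SDS and 8.71, 7.92, 8.01 and 11.52 after it. The first 3 samples after SDS lay within or below the range before, and the sample of array 4 lay above every control-fed sample. Cxcl2 read 7.08, 7.73 and 6.99 before and 7.35, 7.02, 6.58 and 9.32 after. Cxcl5 read 6.81, 6.96 and 6.74 before and 6.89, 6.87, 6.68 and 9.13 after. Cxcl1 read 7.27, 7.52 and 7.22 before and 7.36, 7.13, 7.18 and 8.61 after. In each of these genes the sample of array 4 stood apart from the other samples of its group. The fitted differences were 0.34 (SE 0.75) for Cxcl3, 0.34 (SE 0.54) for Cxcl2, 0.60 (SE 0.47) for Cxcl5 and 0.28 (SE 0.31) for Cxcl1, with adjusted p from 0.419 to 0.797. Without array 4 they were -0.69 (SE 0.36), -0.39 (SE 0.26), -0.07 (SE 0.20) and -0.13 (SE 0.15), and none passed. After SDS, Cxcl2 and Cxcl5 were well above background in 2 of 4 GC-fed samples and Cxcl1 in 3 of 4, so their low readings there are near the floor of the measurement. In control-fed skin after SDS, each of the 4 was well above background in 4 of 4 samples.

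Cxcl13 was the member that passed in both diets. In control-fed skin it read 9.41, 9.31 and 9.14 before SDS and 11.18, 10.77, 10.41 and 10.42 after it, a difference of 1.34 (SE 0.38, adjusted p 0.0309), or 2.53-fold. In GC-fed skin it read 8.72, 8.41 and 8.89 before and 8.99, 10.89, 10.06 and 11.24 after, a difference of 1.69 (SE 0.38, adjusted p 0.0176), or 3.22-fold. The groups overlapped in neither diet, although the GC-fed sample of array 1 was only just above those before SDS. Among all genes, 6.32% were called higher in GC-fed skin and 11.3% had all samples after SDS above all before it. The control-fed call was kept in 9 of 18 other settings (adjusted p 0.00922 to 0.216) and the GC-fed call in 15 of 18 (0.0047 to 0.0906). The control-fed call was lost without before-SDS array 1, 2 or 3 or after-SDS array 3 (0.0667 to 0.216). The GC-fed call was lost without before-SDS array 2 or 3 or after-SDS array 3 (0.0513 to 0.0906). Without array 4 the differences were 1.43 (SE 0.40, adjusted p 0.0266) and 1.38 (SE 0.40, adjusted p 0.0431), and with it turned 1.53 (SE 0.37, adjusted p 0.00922) and 1.5 (SE 0.37, adjusted p 0.0173). The difference stayed between 1.15 and 1.53 in control-fed skin and between 1.38 and 2.06 in GC-fed skin over these settings.

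The other homeostatic members moved less. Cxcl14, a keratinocyte chemokine of resting epidermis, was higher after SDS by 0.34 (SE 0.22, adjusted p 0.286) in control-fed skin and by 0.54 (SE 0.22, adjusted p 0.122) in GC-fed skin, where the groups did not overlap. Its GC-fed difference passed in 1 of 18 other settings, without before-SDS array 1 (0.87, SE 0.20, adjusted p 0.0256). Cxcl12, a stromal factor that holds leukocytes and stem cells in place, had a mean between 11.83 and 11.98 in the 4 groups. On the probe used, Cxcl12 differed by -0.08 (SE 0.14) in control-fed and -0.12 (SE 0.14) in GC-fed skin, with adjusted p of 0.717 and 0.624. A second Cxcl12 probe was not fitted. Its processed signals, not normalized between arrays, were 1484, 2076 and 1949 in control-fed skin before SDS. They were 3845, 2501, 2704 and 1950 after it. In GC-fed skin they were 1709, 1545 and 1962 before and 2081, 1573, 1786 and 3255 after. Among the interferon-induced pair, Cxcl10 differed by 0.70 (SE 0.34, adjusted p 0.155) and 0.16 (SE 0.34, adjusted p 0.791), and Cxcl9 by 0.11 (SE 0.28, adjusted p 0.803) and -0.18 (SE 0.28, adjusted p 0.717). Cxcl10 was well above background in 2 of 4 GC-fed samples after SDS. On the probe used, Cxcl16 differed by 0.14 (SE 0.17, adjusted p 0.581) and -0.16 (SE 0.17, adjusted p 0.560). A second Cxcl16 probe, also not fitted, had processed signals of 966, 1042 and 1201 in control-fed skin before SDS. They were 1579, 1708, 1275 and 1188 after it. In GC-fed skin they were 1082, 1133 and 1280 before and 1304, 1194, 1448 and 1371 after.

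The order of a gene's levels over the 4 groups was mostly not resolved. Of 30 gaps between neighbouring group means, 3 were larger than the SDs of both neighbours. One was the gap of 1.27 from control-fed after SDS to the next group in Cxcl2. The others were in Cxcl13, from GC-fed after SDS to control-fed before SDS (1.01) and from there to GC-fed before SDS (0.614).

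Within an array the GC-fed and control-fed samples were hybridised together, so the diet effect was read from their log2 ratio, GC-fed over control-fed. No member passed for diet before SDS, after SDS or for the difference between the states. As labelled, the 4 neutrophil attractants were lower in GC-fed skin on after-SDS arrays 1, 2 and 3 and higher on array 4. The homeostatic and interferon-induced members did not share that order of signs on the probes used, although a second probe of Cxcl12 had it.

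**Figure D2:**
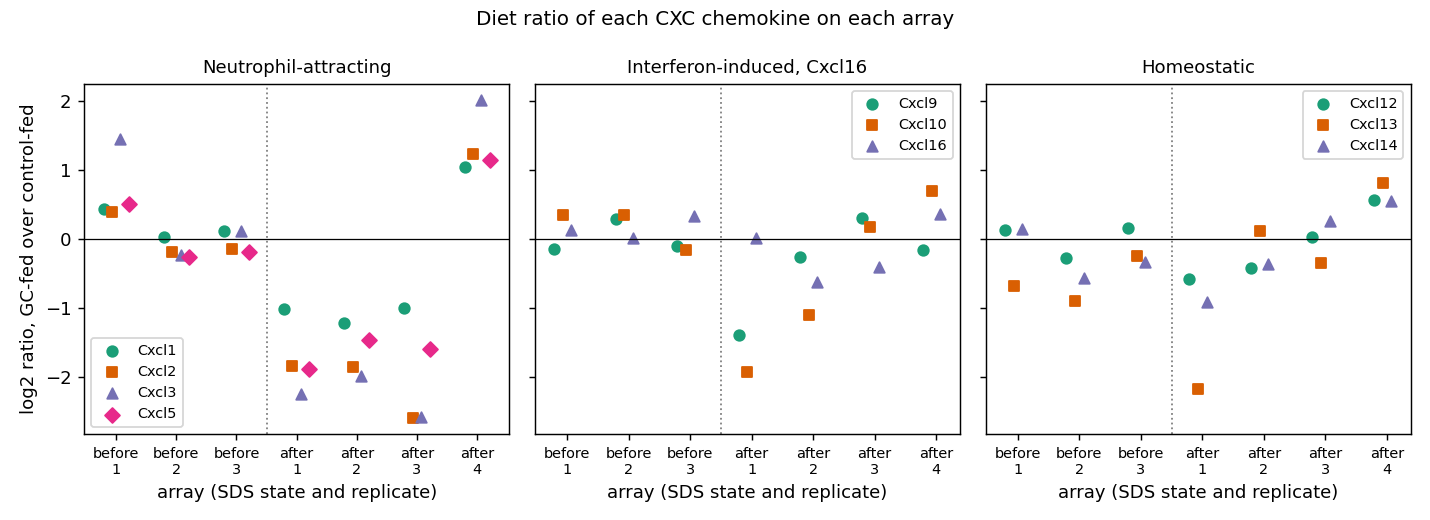
Log2 ratio, GC-fed over control-fed (y axis), of each CXC chemokine on the 3 before-SDS and 4 after-SDS arrays (x axis), 1 point per gene and array. Cxcl1, Cxcl2, Cxcl3 and Cxcl5 lie between -2.61 and -0.999 on after-SDS arrays 1 to 3 and between 1.04 and 2.03 on array 4.

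After SDS the ratio of Cxcl3 was -2.25, -1.99, -2.58 and 2.03 on arrays 1 to 4. Cxcl2 gave -1.85, -1.87, -2.61 and 1.23. Cxcl5 gave -1.89, -1.47, -1.60 and 1.14. Cxcl1 gave -1.02, -1.22, -0.999 and 1.04. In each gene 3 of 4 arrays were low and 1 was high, and over all genes 16.7% had that same order of signs. The fitted diet effects after SDS were -1.20 (SE 0.74) for Cxcl3, -1.27 (SE 0.56) for Cxcl2, -0.95 (SE 0.46) for Cxcl5 and -0.55 (SE 0.33) for Cxcl1, each with an adjusted p of 0.734 in limma's ratio fit. None of 17111 genes passed (0%), while 998 genes, 5.83%, had an unadjusted p under 0.05. The median effect was -0.47 over the 10 members and 0.0066 over all genes.

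The GC-fed readings of Cxcl2 and Cxcl5 on arrays 1 and 2, and of Cxcl1 on array 2, were not well above background, so the sizes and errors of these ratios rest in part on readings at the floor. With the scanner software's processed signals the ratios on arrays 1 and 2 were -2.82 and -4.24 for Cxcl2 and -3.78 and -4.26 for Cxcl5. The fitted effects were then -2.39 (SE 0.91) and -2.35 (SE 0.92), each with an adjusted p of 0.705. Cxcl3 was well above background in every sample.

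Without array 4, the diet effect after SDS was -2.44 for Cxcl3 (SE 0.17, adjusted p 0.00101) and -2.22 for Cxcl2 (SE 0.08, adjusted p 0.000141). It was -1.71 for Cxcl5 (SE 0.15, adjusted p 0.00184) and -1.10 for Cxcl1 (SE 0.11, adjusted p 0.0026). These 4 were the members that passed in that setting, in which 6.2% of all genes were called lower in GC-fed skin. The smaller errors follow from leaving out the array that disagreed, so these calls are no separate support. With the sign of array 4 turned, the same 4 passed, at -2.46, -2.08, -1.63 and -1.10, and 8.15% of all genes were called lower. With array 3 turned instead, Cxcl3, Cxcl2 and Cxcl1 were at 0.25 (SE 0.97), 0.18 (SE 0.82) and 0.10 (SE 0.44), and no member passed. The call of the diet effect on these genes after SDS therefore depended on how array 4 was taken. With array 3 turned, the values of all 4 lay within their SE of 0. Arrays 1 and 2 were not turned, so array 3 is not marked out from them.

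**Figure D3:**
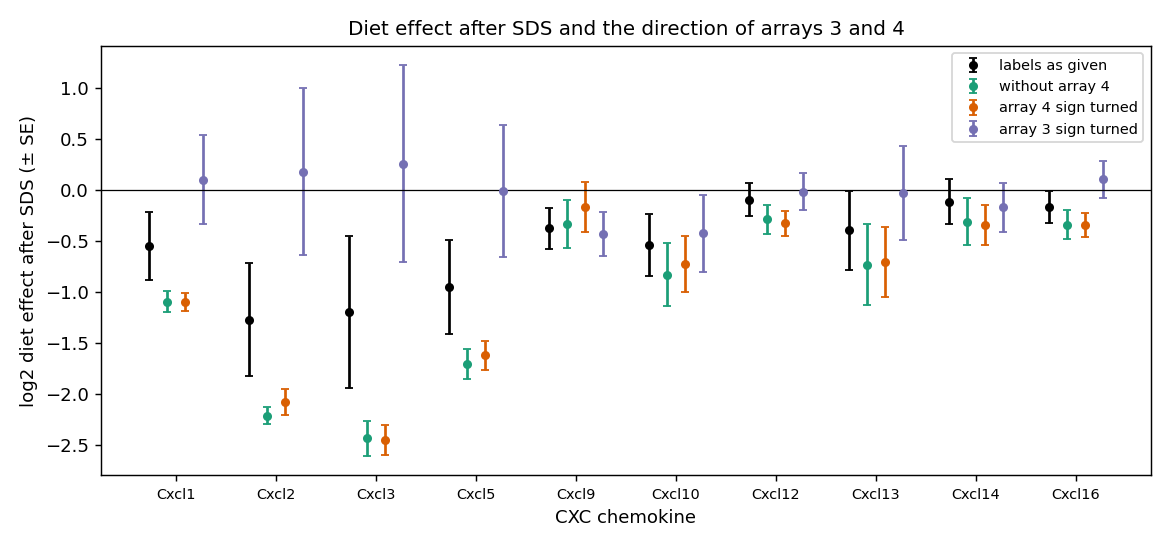
Log2 diet effect after SDS, GC-fed over control-fed (y axis, ± SE of limma's ratio fit), of each CXC chemokine (x axis) with the labels as given, without array 4, with the sign of array 4 turned and with the sign of array 3 turned. For Cxcl2 the effect is -1.27, -2.22, -2.08 and 0.18 in these settings.

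Before SDS the same genes showed no shared direction. The ratio of Cxcl3 was 1.46, -0.23 and 0.11 on arrays 1 to 3, that of Cxcl2 0.39, -0.19 and -0.15, that of Cxcl5 0.52, -0.27 and -0.18, and that of Cxcl1 0.43, 0.03 and 0.11. The fitted effects were 0.36 (SE 0.88), -0.06 (SE 0.66), -0.07 (SE 0.54) and 0.10 (SE 0.40). Cxcl13 was lower in GC-fed skin on all 3 arrays, at -0.69, -0.90 and -0.25, as 10% of all genes were, and its effect was -0.75 (SE 0.46). No member passed before SDS, where each adjusted p was 0.999992. Over all genes 0% passed, and 0.619% had an unadjusted p under 0.05.

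The diet effect after minus before SDS tests whether the diets differed in their response to SDS. It was -1.56 (SE 1.15) for Cxcl3, -1.21 (SE 0.86) for Cxcl2, -0.88 (SE 0.71) for Cxcl5, -0.65 (SE 0.52) for Cxcl1 and 0.35 (SE 0.60) for Cxcl13. No member and no other gene passed (0%), and 1.71% of genes had an unadjusted p under 0.05. So the call of Cxcl5 in control-fed and not in GC-fed skin is no measured difference between the diets. Without array 4, the 4 neutrophil attractants passed, from -3.05 (SE 0.25, adjusted p 0.00472) in Cxcl3 to -1.31 (SE 0.15, adjusted p 0.0151) in Cxcl1, in a setting where 0.894% of all genes were called lower. With array 4 turned they passed too, from -3.07 to -1.31, and 1.45% of all genes were called lower.

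On the probes used, the homeostatic members did not share the order of signs of the neutrophil attractants after SDS. Part of the pattern was shared. Over all arrays, the ratio of Cxcl12 had r of 0.68 to 0.81 with the 4 neutrophil attractants. Its r was 0.72 with Cxcl13 and 0.87 with Cxcl14. Cxcl13 and Cxcl14 had r of 0.40 to 0.60 with the attractants. These r carry no test. After SDS, Cxcl13 gave -2.19, 0.12, -0.34 and 0.81 on arrays 1 to 4, Cxcl14 gave -0.91, -0.36, 0.26 and 0.55, and Cxcl12 gave -0.58, -0.42, 0.03 and 0.56. In each of the 3 genes array 1 was the lowest and array 4 the highest. The median of the 4 neutrophil attractants minus the median of the 3 homeostatic members was -0.96, -1.31, -2.13 and 0.62 on these arrays, and 0.35, 0.35 and 0.24 before SDS. These gaps describe members grouped by their known roles and carry no test. The fitted effects after SDS were -0.40 (SE 0.39) for Cxcl13, -0.12 (SE 0.22) for Cxcl14 and -0.10 (SE 0.16) for Cxcl12. Without array 4 they were -0.74 (SE 0.40), -0.31 (SE 0.23) and -0.29 (SE 0.14), and with it turned -0.71 (SE 0.34), -0.35 (SE 0.20) and -0.33 (SE 0.12), with adjusted p from 0.125 to 0.468.

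Cxcl10 gave -1.94, -1.11, 0.18 and 0.69 after SDS and Cxcl9 -1.40, -0.26, 0.30 and -0.16, with effects of -0.54 (SE 0.31) and -0.38 (SE 0.20). Array 1 was the low one for both. Cxcl16 gave 0.02, -0.63, -0.41 and 0.36, an effect of -0.17 (SE 0.16). Over all arrays, r with the neutrophil attractants was 0.73 to 0.83 for Cxcl16 and 0.62 to 0.77 for Cxcl10. For Cxcl9 it was 0.19 to 0.36. A second probe disagreed for 2 genes. For Cxcl16 it gave -0.29 on array 1 and 0.14 on array 3, where the probe used gave 0.02 and -0.41. For Cxcl12 the second probe gave -0.87, -0.65, -0.60 and 0.74 on arrays 1 to 4, the order of signs of the neutrophil attractants, while the probe used gave 0.03 on array 3. Both Cxcl12 probes were well above background in all 14 channels.

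Of the other CXC ligands, Ppbp, a platelet chemokine that also binds Cxcr2, had diet ratios of -1.18, -1.17, -1.10 and 1.48 after SDS, the same order of signs as the neutrophil attractants. Pf4, the other platelet chemokine, had that order too, at -0.80, -0.31, -0.63 and 0.57. Neither passed for diet as labelled, and both were lower in GC-fed skin without array 4, Ppbp at -1.21 (SE 0.14, adjusted p 0.00556) and Pf4 at -0.61 (SE 0.14, adjusted p 0.0397). Both also passed with array 4 turned. The SDS difference of Ppbp was 1.14 (SE 0.42, adjusted p 0.0737) in control-fed skin and 0.71 (SE 0.42, adjusted p 0.279) in GC-fed skin. Without array 4 the former was 1.44 (SE 0.21, adjusted p 0.00186). Pf4 differed by 0.13 (SE 0.19, adjusted p 0.656) and 0.19 (SE 0.19, adjusted p 0.550). Cxcl11, Cxcl15 and Cxcl17 were on the array but below the filter.

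Of the receptors, 6 of 8 were measured and 1 rose with SDS in control-fed skin. That was Cxcr2, the neutrophil receptor of the Cxcl1 group, at 0.69 (SE 0.20, adjusted p 0.0311); in GC-fed skin it was at 0.52 (SE 0.20, adjusted p 0.0962). In control-fed and GC-fed skin, Cxcr3 was at 0.45 (SE 0.18) and 0.45 (SE 0.18), and Cxcr4 at 0.60 (SE 0.25) and 0.14 (SE 0.25). Cxcr6 was at 0.08 (SE 0.13) and 0.09 (SE 0.13), and the decoy receptors Ackr1 at -0.30 (SE 0.20) and -0.29 (SE 0.20) and Ackr3 at -0.37 (SE 0.16) and -0.47 (SE 0.16). None of these 5 passed in either diet. Without array 4, 3 of the 6 rose in control-fed skin, and with array 4 turned 3 did. Among those without array 4 was Cxcr4, the receptor of Cxcl12, at 0.80 (SE 0.14, adjusted p 0.0037). Of all genes, 12.2% and 13.8% rose there in these settings, against 8.46% as labelled. In GC-fed skin 2 of the 6 fell in either setting, in which 7.76% and 9.41% of all genes were called lower, against 6.75% as labelled. For diet after SDS, 3 of the 6 were lower in GC-fed skin without array 4 and 4 with it turned. Cxcr4 was at -1.03 (SE 0.12, adjusted p 0.0049) and -0.96 (SE 0.11, adjusted p 0.00212). Of all genes, 6.2% and 8.15% were lower in these settings. Cxcr1 and Cxcr5, the latter the receptor of Cxcl13, were below the filter.

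Of 14 cytokines that induce these chemokines, 6 were measured, and 3 rose with SDS in control-fed skin and none in GC-fed skin. Il1b rose by 1.93 (SE 0.52, adjusted p 0.0254), Il6 by 0.73 (SE 0.18, adjusted p 0.018) and Osm by 0.33 (SE 0.08, adjusted p 0.0213). In GC-fed skin they were at 0.48 (SE 0.52), 0.43 (SE 0.18) and 0.23 (SE 0.08). The diet ratio of Il1b after SDS was -1.77, -2.01, -2.14 and 1.09 on arrays 1 to 4, with the signs of Cxcl3. Its fitted effect was -1.21 (SE 0.55, adjusted p 0.734) as labelled. It was -2.11 (SE 0.17, adjusted p 0.00153) without array 4 and -1.98 (SE 0.18, adjusted p 0.000645) with it turned. Tnf and Il6 had those signs too. Il1a ran the other way, at 0.83, 0.09, 0.56 and -0.31. Osm was below 0 on all 4 arrays, and Ifng was above 0 on arrays 3 and 4. Without array 4, and also with it turned, 4 of the 6 cytokines rose with SDS in control-fed skin and 3 were lower in GC-fed skin after SDS. Of 20 genes of the interleukin-1, NF-κB and interferon pathways, 19 were measured. In control-fed skin 1 fell, the decoy receptor Il1r2 at -0.86 (SE 0.19, adjusted p 0.0125), and 2 rose, Il1r1 at 0.51 (SE 0.09, adjusted p 0.00485) and Ifngr2 at 0.49 (SE 0.11, adjusted p 0.0106). In GC-fed skin 1 rose, Il1r1 at 0.39 (SE 0.09, adjusted p 0.0202), and 1 fell, Il1r2 at -0.74 (SE 0.19, adjusted p 0.029). Without array 4, 5 of the 19 rose and 2 fell with SDS in control-fed skin, and 5 were lower in GC-fed skin after SDS; with it turned these counts were 7, 2 and 8, against none for diet as labelled. The share of all genes that fell with SDS in control-fed skin was 10.1% as labelled, 12% without array 4 and 14% with it turned. The share that rose there was 8.46%, 12.2% and 13.8% in the same order. For diet after SDS, the share lower in GC-fed skin was 0%, 6.2% and 8.15%. In GC-fed skin as labelled, 6.32% of all genes rose with SDS and 6.75% fell.

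The medians of neutrophil and of macrophage and monocyte markers had the order of signs of the neutrophil attractants across the after-SDS arrays. So did those of B and plasma cell markers (-1.02, -0.23, -0.06 and 0.31) and CXC receptors (-0.37, -0.14, -0.62 and 0.49). The cytokine and pathway lists had it as well. Single markers departed from it, among them Mpo (1.94, 0.56, -0.26 and -0.14), Lcn2 (0.19 on array 3) and Cd163 (0.22 on array 2). The median diet ratio of 10 measured neutrophil markers was -0.95, -0.73, -0.68 and 0.98 on after-SDS arrays 1 to 4, and that of 14 macrophage and monocyte markers was -0.80, -0.46, -0.99 and 0.48. That of 11 T and NK cell markers was smaller, at -0.31, -0.06, -0.05 and 0.14. Keratinocyte markers ran the other way, at 0.76, 0.35, 0.59 and -0.32. Skeletal muscle markers (-1.14, -0.22, -1.15 and -0.29) and adipocyte markers (-0.54, -0.45, -1.09 and -0.11) were below 0 on all 4 arrays. On the same arrays the median of all genes lay between -0.028 and 0.021. Of 18 listed neutrophil markers, Ly6g, Stfa1 and BC100530 had no probe, and Elane, Ngp, Camp, Ltf and Cd177 were below the filter. With SDS, 1 neutrophil marker rose in control-fed skin, Mmp8 at 0.88 (SE 0.25, adjusted p 0.0283), and 1 fell, Mpo at -1.07 (SE 0.30, adjusted p 0.0277). Without array 4, 7 of 10 rose with SDS in control-fed skin and none rose in GC-fed skin. For diet after SDS, 6 of 10 were lower in GC-fed skin. With array 4 turned these counts were 8, 0 and 7. Of all genes, 12.2% and 13.8% rose in control-fed skin in these settings, against 8.46% as labelled. For diet after SDS, 6.2% and 8.15% of all genes were lower. The median log2 level of the neutrophil list ran from 8.20 to 8.79 in control-fed skin before SDS and from 8.74 to 9.69 after it, and in GC-fed skin from 7.93 to 8.76 and from 8.49 to 9.81. In whole skin, more cells of a type and more RNA per cell cannot be told apart, and the part of any of these cell types in the chemokine ratios was not tested.

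**Figure D4:**
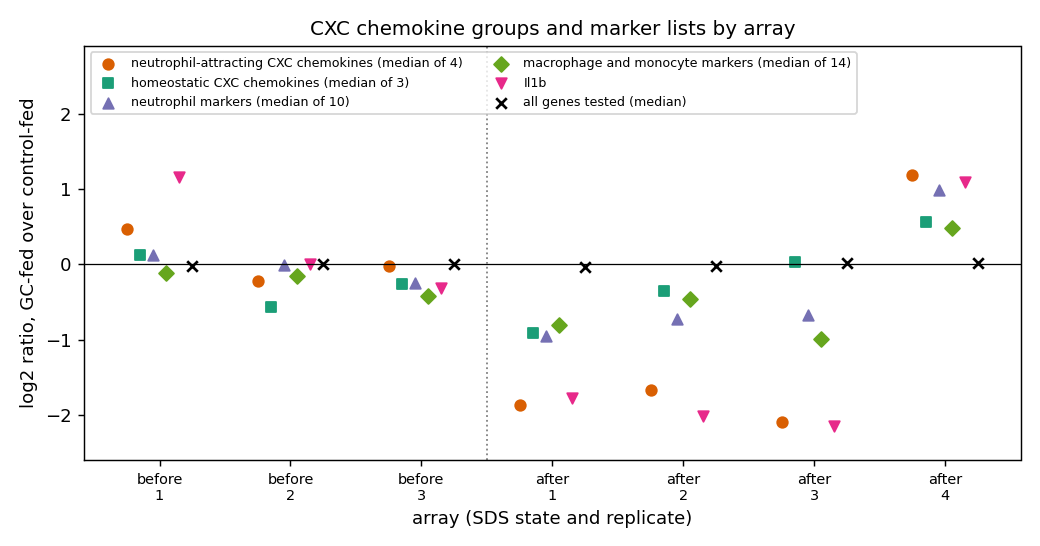
Median log2 ratio, GC-fed over control-fed (y axis), of the neutrophil-attracting and homeostatic CXC chemokines, of neutrophil and of macrophage and monocyte markers, of Il1b (a single gene) and of all genes tested, on each array (x axis). On after-SDS arrays 1 to 3 the neutrophil-attracting median lies between -2.09 and -1.67 and on array 4 at 1.19.

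Beside the rise of Cxcl13, Jchain, a plasma cell gene, rose by 1.51 (SE 0.26, adjusted p 0.00445) in control-fed and 0.95 (SE 0.26, adjusted p 0.0359) in GC-fed skin. It was the 1 of 4 measured B and plasma cell markers that passed; Cd79a, Pax5, Blk and Cr2 were below the filter. Hair follicle markers also rose, 8 of 14 in control-fed and 11 of 14 in GC-fed skin, where 8.46% and 6.32% of all genes did. Their median diet ratio before SDS was 1.04, -2.17 and -0.27 on arrays 1 to 3. The part of either in the Cxcl13 difference was not tested.

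By likeness of the diet ratio over the 7 arrays, among 6889 genes with a ratio SD of at least 0.25, the 5 genes nearest to Cxcl3 were Cd93, Ccl7, Acod1, Cryaa and Abi3, at Pearson r from 0.991 to 0.998. Those nearest to Cxcl14 were Saa2, Ccdc68, Ccdc106, Pcdh19 and Mapre3 (0.968 to 0.984). Those nearest to Cxcl9 were Ppm1l, Dtwd2, Morc4, 1810062O18Rik and AK076489 (0.921 to 0.980). The arrays share these samples, and with 7 arrays high values are reached by sorting so many genes, so they carry no p.

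In the authors' deposited table Cxcl1, Cxcl2, Cxcl5 and Cxcl10 stood at the floor of 200 in both channels of all 3 before-SDS arrays. In the authors' deposited table the log2 ratio of Cxcl3 after SDS was -2.53, -1.84, -2.88 and 2.15 on arrays 1 to 4, in the same order of signs as above. In the authors' deposited table that of Cxcl13 was -2.41, 0.14, -0.32 and 0.83.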

How the data were processed

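Per the file headers, the deposited scanner files give the intensity of every spot in 2 channels, read by Agilent Feature Extraction (9.1.3.1). The authors' deposited gene-level table holds intensity floored at 200 and a log2 ratio, and served as an alternative for 13084 genes. The genome build behind the array's probes is not given in the sources used here; promoter windows are RefSeq's, on GRCm38.p6.

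Mean signals were corrected in limma 3.58.1 (R 4.3.3) by normexp, offset 50, against the background level the scanner software had used, then normalized by loess. Against the local background the fitted background mean was implausible on 3 arrays (-679 to -22.9), where negative controls had medians from 31.0 to 123. That choice therefore became an alternative, after the members' values under both had been seen. Against the background chosen, the fitted mean was also negative on every array (-28.7 to -15.6), with negative control medians from -6.04 to -0.12. Outlier spots (4 to 27 per array) were left out. The brightest probe of a gene was used.

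Diet effects came from limma's lmFit and eBayes on the log2 ratios of 7 arrays, with a dye term. SDS effects came from the separate-channel fit of 14 channels (Aquantile, lmscFit, within-spot correlation 0.018, 17064 genes). The Benjamini-Hochberg adjustment ran over all genes, with 0.05 as threshold. The fits were tested on simulated data. The number of arrays limits the precision.

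The members and lists were chosen with earlier results of these data known; 1 gene of the pathway list is not reported here and was left out of its counts. All 10 members are named in each comparison; of other lists, counts and up to 3 members with the smallest p are given, and all CXC receptors and other CXC ligands. Of other lists, SDS changed in control-fed and GC-fed skin, of those measured: T and NK cell, 1 and 1 of 11 (lower); endothelial, 1 and 2 of 8 (lower); adipocyte, 3 (higher) and 1 (lower) of 8; keratinocyte, 2 and 0 of 9 (lower; Krt10 gave no value in that fit); fibroblast (8) and skeletal muscle (10), 0 and 0; macrophage and monocyte (14), 0 and 0. Of all genes, 8.46% and 6.32% were called higher and 10.1% and 6.75% lower.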

Additional observations from a re-analysis of the deposited data

Results flagged for a closer look

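Of 30 sets of 4 values checked (diet ratio after SDS, and level after SDS in each diet, for the 10 members), 5 had 1 sample whose gap to the nearest of the others was above Dixon's critical value; chance gives about 1 in 20. All 5 were array 4 and neutrophil attractants. The sample far from the others was the diet ratio of Cxcl1 (1.04), Cxcl3 (2.03) and Cxcl5 (1.14), and the GC-fed level of Cxcl1 (8.61) and Cxcl5 (9.13). The sets overlap, since a ratio and a level on 1 array share a measurement.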

How the results depend on the processing

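Of 860 member values recomputed in other settings, 743 kept their direction and their side of the threshold, 25 no longer passed, 25 newly passed and 12 reversed; in 55 more the sign changed of a value within 1 SE of 0 that passed in neither setting. For diet, the members that passed were none after SDS as labelled, 4 with array 4 turned, and 0 to 4 when each array was left out in turn; over all genes it was 0 as labelled, 2253 with array 4 turned and 0 to 1598 with arrays left out. For the difference between the states it was 0 genes as labelled, 265 with array 4 turned (4 members) and 0 to 159 with arrays left out (0 to 4 members). By the authors' deposited log2 ratios, 1 gene passed before SDS and 1 for the difference.

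With array 3 turned, the effect after SDS was 0.10 for Cxcl1, 0.18 for Cxcl2, 0.25 for Cxcl3 and 0.10 for Cxcl16, and the difference between states 0.0067 for Cxcl1, 0.26 for Cxcl2 and 0.061 for Cxcl5, all reversed. In the authors' deposited table, whose floor of 200 holds most readings of Cxcl5, its effect after SDS was 0.00051 and the difference 0.074, both reversed. Leaving out 1 array at a time, Cxcl13 after SDS ranged from -0.78 to 0.18, Cxcl10 for the difference from -0.89 to 0.34, and Cxcl5 with SDS in GC-fed skin from -0.075 to 0.98. Apart from the constructions named, the cause was not tested.

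For SDS in control-fed skin, 2 members passed, and 0 did with the scanner software's processed signals, with median centring, with no filter and with array 3 turned. It was 1 with a filter of all 14 channels (6 members left), with the mean of a gene's probes and with the local background, which was added after seeing the data; 4 with no dye term; 5 with array 4 turned; and 0 to 5 with arrays left out. The 3160 genes that passed became 1163 with median centring and 280 to 4121 with arrays left out. In GC-fed skin, 0 to 2 members passed with arrays left out, against 1, and the 2230 genes numbered 1335 with processed signals, 829 with median centring, 971 with array 3 turned and 324 to 2552 with arrays left out. Before SDS, the neutrophil-attracting minus the homeostatic median effect was 0.33, and became 0.46 with processed signals, 0.68 with all 14 channels above background, 0.46 with array 4 turned, 0.25 in the authors' deposited table and 0.11 to 0.44 with arrays left out.

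With the local background, the diet effect after SDS as labelled was -0.34 for Cxcl1, -0.88 for Cxcl2, -0.90 for Cxcl3 and -0.50 for Cxcl5, none past the threshold.

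The labels number the replicates alike before and after SDS. The deviations of samples with the same number had r of -0.11, -0.08 and 0.29 in control-fed skin. In GC-fed skin they had r of 0.09, -0.16 and -0.14. Unlike numbers gave r from -0.29 to 0.36 in control-fed skin. So few values do not settle whether the numbers pair samples. With the replicate number as a block, 2059 genes passed for SDS in control-fed skin and 1236 in GC-fed skin, with 0 and 1 members, and 0 genes for the difference. Dim probes limit the values of Cxcl1, Cxcl2, Cxcl5 and Cxcl10 in GC-fed skin after SDS. They limit the starting level of the SDS differences too. In control-fed skin before SDS, the scanner software's processed signals were 44.0 to 106 for Cxcl1 and 33.0 to 164 for Cxcl2. They were 10.3 to 71.6 for Cxcl5 and 99.5 to 140 for Cxcl10, beside a normexp offset of 50.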
